A study of Mus musculus with 10 samples.

Results

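Zbtb20 encodes a transcriptional repressor of the BTB zinc-finger family, and its unique molecular identifier (UMI) counts were followed here through single nuclei of mouse hippocampus and cortex. It is 1 of 23589 genes in the deposited table of counts. It was chosen by its measured difference between the 2 regions, in all nuclei and in excitatory neuron-like nuclei, so its levels and differences are given below as a description, with no test. DroNc-seq, which captures nuclei and barcoded beads in droplets and counts each captured RNA molecule once by its UMI, was run on archived frozen brain of C57BL/6 mice. The tissue was hippocampus (5 libraries) or cortex dissected as prefrontal cortex (5 libraries), and the labels give no treatment, no altered genotype and no age. The 10 libraries carry title numbers from 0 to 3 in each region, and the pair numbered 0 was summed, leaving 4 units in each region. The design names 4 mice, but the labels do not tie a number to a mouse, so p-values reflect how these units vary, which may be technical variation only.

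In all, 11624 nuclei were used, 5658 of hippocampus and 5966 of cortex, with 1443244 to 4407856 UMIs per unit. Median UMIs per nucleus were 1006 in hippocampus and 1329 in cortex, and no pair of libraries shared more than 3 barcodes. The units numbered 0 stood apart in both regions. Hippocampus unit 0 held 91 of the 99 hippocampal nuclei with markers of cortical layers 2/3 to 4 and had a median of 793 UMIs against 1034 to 1172 in units 1 to 3. Cortex unit 0 was deeper, with a median of 2505 UMIs against 1106.5 to 1306. Where a value rests on these units it is given without them.

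BTB zinc-finger proteins bind DNA through zinc fingers at one end and recruit corepressor complexes through the BTB domain at the other. Zbtb20 is known for its part in the developing hippocampus, where it is needed for pyramidal neurons of the CA1 field to take on their identity and where it represses genes of isocortical projection neurons. In the adult brain the protein is known in hippocampal granule and pyramidal neurons and in astrocytes. Outside the brain it is known in liver, where it is a repressor, and in pituitary.

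Nuclei were grouped without using Zbtb20 and named from marker genes, and a name carries the suffix "-like" because it was rebuilt from markers. Sums of the hippocampal marker lists are given as a description, since the same lists gave the names and so cannot test them. The 6 granule markers, led by Prox1, summed to 1331 CPM (UMIs of a gene per 1000000 UMIs of the same nuclei) in dentate granule-like nuclei, 126 in CA3-like and 51.2 in CA1-like nuclei. The CA1 markers summed to 730 CPM in CA1-like and 82.2 in CA3-like nuclei. The CA3 markers separated less, with 1302 CPM in CA3-like and 905 in CA1-like nuclei. Csf2rb2 and Cdh24 had UMIs in CA3-like and none in CA1-like nuclei, but each was found in under 10% of CA3-like nuclei. Cpne7, another CA3 marker, was a leading gene of an excitatory cluster with the CA1 markers Fibcd1 and Man1a at a finer clustering.

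Among types with at least 3 units, Zbtb20 was highest in the excitatory neurons of the hippocampus. In 197 CA3-like nuclei, the pyramidal neurons that receive the mossy fibres, units 0 to 3 had 5022, 4584, 4598 and 4626 CPM, a mean of 4707 ± 210 (SD, n = 4). In 1181 dentate granule-like nuclei, the source of those fibres, the units had 4135, 4064, 3833 and 3735 CPM, a mean of 3942 ± 189 (SD, n = 4). The lowest CA3 unit lay above the highest granule unit, so these levels did not overlap. In 323 CA1-like nuclei, the output neurons of the hippocampus, the units had 3305, 3761, 2538 and 2878 CPM, a mean of 3121 ± 530 (SD, n = 4). The highest CA1 unit reached just above the lowest granule unit, so granule and CA1 overlapped, while every CA1 unit lay below every CA3 unit. Over 28 combinations of type and region with at least 3 units, ordered by their mean, CA3 above granule was the only step between neighbours at which the units did not overlap.

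**Figure D1:**
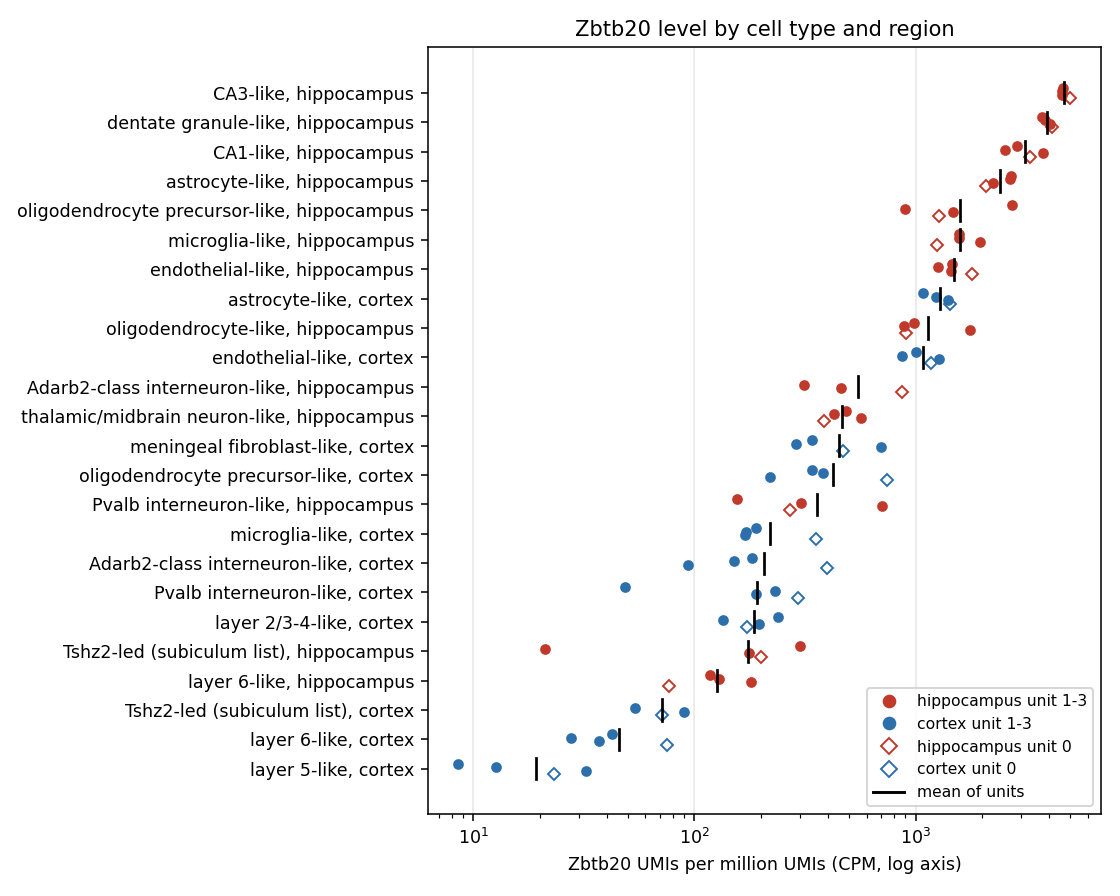
Zbtb20 level (CPM, log axis) in each unit by cell type and region, ordered by the mean over units (black bar), with hippocampus in red, cortex in blue and the units numbered 0 as open diamonds; types with no named subtype are left out. Among types with at least 3 units, CA3-like, dentate granule-like and CA1-like nuclei lie highest, at means of 4707, 3942 and 3121 CPM, and layer 5-like nuclei of cortex lowest, at 19.2 CPM.

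Zbtb20 was also counted in nearly every nucleus of these types. A Zbtb20 UMI was found in 98.9% of CA3-like, 92.9% of CA1-like and 92.2% of granule-like nuclei (means over units). The median nucleus held 12, 5 and 4 Zbtb20 UMIs in these types, and 87.3%, 51.7% and 41.7% of nuclei held at least 5. CA3-like nuclei were also the deepest, with a mean of median UMIs over units of 3012 against 1888 in CA1-like and 1095 in granule-like nuclei. With every nucleus thinned to 400 UMIs, which left out 337 shallower hippocampal nuclei in all and none of cortex, the shares were 81.7% in CA3-like, 71.7% in granule-like and 66.3% in CA1-like nuclei, the same order as the CPM. In layer 5-like nuclei of cortex, where Zbtb20 was lowest, the share was 2.75% before and 0.806% after thinning, at a mean of median UMIs of 2026.

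**Figure D2:**
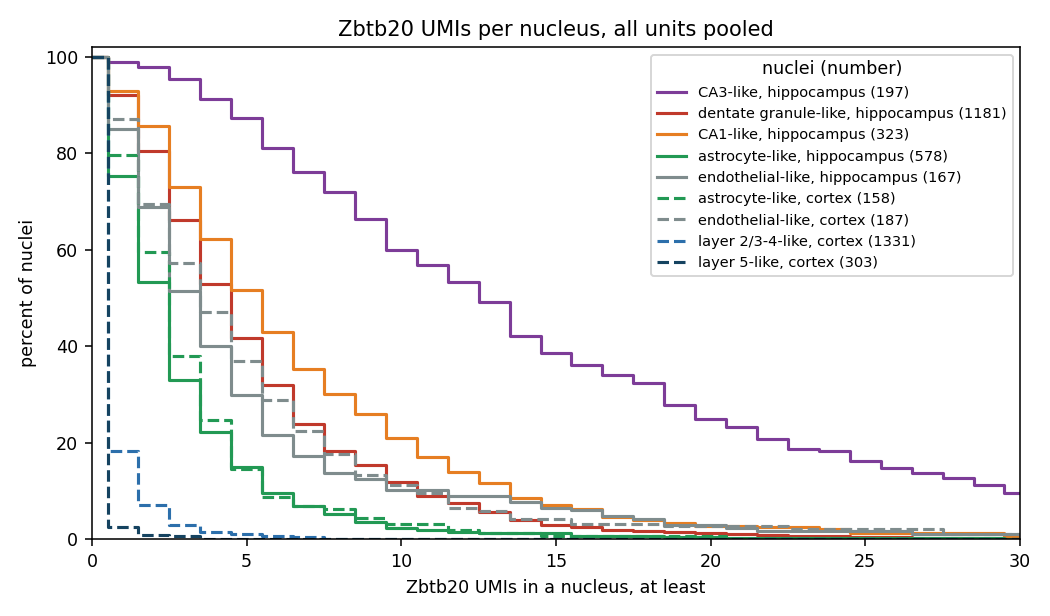
Percent of nuclei (vertical axis) with at least the given number of Zbtb20 UMIs (horizontal axis) by type, all units pooled and not adjusted for depth; solid lines are hippocampus and dashed lines cortex. At 5 UMIs or more lie 87.3% of CA3-like nuclei, 41.7% of granule-like nuclei and 1.05% of layer 2/3-4-like nuclei of cortex.

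Excitatory neurons of the cortex held little Zbtb20, and the amount differed by layer. In 1331 layer 2/3-4-like nuclei, the upper-layer neurons whose leading genes included Otof, Cux2 and Rasgrf2, units 0 to 3 had 173, 195, 134 and 239 CPM, a mean of 186 ± 43.6 (SD, n = 4). In 435 layer 6-like nuclei the mean was 45.5 ± 20.6 CPM, and in 303 layer 5-like nuclei, marked by Fezf2, it was 19.2 ± 10.7 CPM (SD, n = 4 each). The lowest layer 2/3-4 unit, at 134 CPM, lay above the highest layer 6 unit, at 75.2 CPM, and the highest layer 5 unit, at 32.2 CPM. Layers 5 and 6 overlapped. Outside this order stood 1892 excitatory neuron-like nuclei of cortex with no layer name, at 57.6 ± 20.4 CPM (SD, n = 4). Rorb, which is on the layer 2/3-4 marker list, was a leading gene of unnamed sub-clusters with 603 and 324 cortical nuclei. The order of the layers rests on few molecules for the deep layers, 13 Zbtb20 UMIs in layer 5-like and 31 in layer 6-like nuclei, against 433 in layer 2/3-4-like nuclei.

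Cortical-type neurons found in the hippocampal libraries carried low levels as well. The 91 layer 2/3-4-like nuclei of hippocampus unit 0 had 149 CPM, inside the range of the cortical units. The 56 layer 6-like nuclei of the hippocampal libraries had 126 ± 42.5 CPM (SD, n = 4) from 12 Zbtb20 UMIs. That level depended on the processing, at 475 CPM with a finer clustering (Leiden resolution 4.0) and 80.9 with free granule RNA subtracted. A group led by Tshz2, with markers of the subiculum list, held 92 nuclei in the 4 hippocampal units and 65 in the 3 cortical units with at least 10 of them, with 175 ± 116 CPM in hippocampus (SD, n = 4) and 71.5 ± 17.8 in cortex (SD, n = 3). These values lay far below those of the granule, CA1 and CA3-like nuclei of the same libraries. The 531 thalamic or midbrain neuron-like nuclei of the hippocampal libraries had 387 to 569 CPM, a mean of 467 ± 78.7 (SD, n = 4).

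Summed over all excitatory neuron-like nuclei, hippocampus units 0 to 3 had 1961, 3443, 3189 and 3185 Zbtb20 CPM, and cortex units 97.5, 99.7, 88.4 and 101.1. The difference was 4.83 on the log2 scale (± 0.19 SE, n = 4 units each, from log2(CPM + 5)), and the ratio of the mean CPM was 30.5-fold. No unit of hippocampus came near the cortical range. Mostly different clusters hold the class in each region: cluster 0 with granule genes (1183 of 1185 nuclei hippocampal) and cluster 8 with CA1 and CA3 genes (517 of 536) in hippocampus, and clusters 1, 2, 4 and 6 in cortex. The split was not complete. Clusters 1, 2, 4 and 6 held 68 to 101 hippocampal nuclei each, and excitatory cluster 7 held 225 hippocampal and 341 cortical nuclei. Hippocampus unit 0 was lowest, and without it the hippocampal mean was 3272 CPM. Over all nuclei of a tissue, whatever their type, units 0 to 3 had 1476, 2462, 2310 and 2307 CPM in hippocampus and 331, 212, 211 and 224 in cortex, a log2 difference of 3.10 (± 0.23 SE), and 3.42 without the units numbered 0.

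Inhibitory neurons had lower levels than excitatory ones in hippocampus and higher ones in cortex. The hippocampal units had 438, 617, 501 and 577 CPM and the cortical units 304, 149, 242 and 149, which did not overlap, with a log2 difference of 1.37 (± 0.28 SE, n = 4 units each). This difference moved with how nuclei were kept: without the nuclei called as doublets it was 0.84, since the hippocampal mean fell from 533 to 397 CPM. With free granule RNA subtracted by C1ql2 and Dsp, as described further on, the hippocampal units ran from 178 to 501 CPM and overlapped those of cortex. That estimate rests on 8 C1ql2 and Dsp UMIs in these nuclei. With Trpc6 added their mean was 156 CPM, below the cortical 211. Trpc6 is no granule-only gene, with 135 CPM in Sst interneuron-like nuclei of cortex, so this setting can subtract too much in inhibitory neurons. Among subtypes, Pvalb interneuron-like nuclei, which include the fast-spiking basket cells, had 357 ± 238 CPM in hippocampus and 191 ± 104 in cortex (SD, n = 4 each). Adarb2-class nuclei, the interneurons of caudal origin that include Vip cells, had 549 ± 289 CPM in hippocampus (SD, n = 3) and 206 ± 133 in cortex (SD, n = 4). In both subtypes the units of the regions overlapped.

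Of the glia with at least 3 units, astrocytes had the highest mean level. In 578 hippocampal astrocyte-like nuclei the units had 2092, 2234, 2663 and 2696 CPM, a mean of 2421 ± 304, and in 158 cortical ones 1425, 1400, 1242 and 1078 CPM, a mean of 1286 ± 161 (SD, n = 4 each). The lowest hippocampal unit lay above the highest cortical unit, and the difference was 0.91 on the log2 scale (± 0.13 SE), or 1.88-fold in mean CPM. The share of nuclei with a UMI was 75.2% in hippocampus and 78.9% in cortex at mean median depths of 799 and 1496 UMIs, and 55.3% and 40.7% after thinning. The 7 astrocyte markers summed to 17781 CPM in hippocampus and 11870 in cortex, and 6 excitatory neuron markers to 445 (277 to 624) and 763 (572 to 1008), so astrocyte markers were lower and neuronal markers higher in the cortical nuclei. Their part in the Zbtb20 difference was not tested. At a coarser clustering that merged nuclei carrying both astrocyte and neuronal markers into this type, the cortical level was 669 CPM and the difference 1.77.

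In the other glia the regional values came with larger differences in marker content. Microglia-like nuclei, the immune cells of the brain, had 1251, 1963, 1573 and 1566 CPM in hippocampus and 353, 168, 171 and 189 in cortex, with no overlap and a log2 difference of 2.87 (± 0.28 SE, n = 4 units each). Their 6 microglia markers summed to 2113 CPM in hippocampus and 563 in cortex, beside excitatory markers of 1036 and 1274 CPM, and 13.2% and 23.0% of the nuclei were called as doublets. The part of these in the Zbtb20 level was not tested. Oligodendrocyte precursor-like nuclei had 895 to 2724 CPM in hippocampus and 220 to 742 in cortex, with no overlap. After subtraction of free granule RNA by C1ql2 and Dsp this separation was lost in both types, with hippocampal units from 0 to 2132 CPM in precursor-like and from 311 to 1521 in microglia-like nuclei. Oligodendrocyte-like nuclei, the myelinating cells, had 1135 ± 420 CPM in hippocampus (SD, n = 4), and only 1 cortical unit had enough of them, with 499.9 CPM.

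Vascular cells carried Zbtb20 in both tissues, and lining cells were measured in hippocampus. Endothelial-like nuclei, which line the vessels, had 1807, 1447, 1266 and 1459 CPM in hippocampus and 1171, 1277, 867 and 1005 in cortex. The highest cortical unit reached just above the lowest hippocampal unit, so the groups overlapped, with a log2 difference of 0.47 (± 0.16 SE, n = 4 units each). This was the smallest regional difference among the types with 4 units in each region. Mural markers such as Rgs5 summed to 8890 CPM in hippocampus and 7620 in cortex in these nuclei, so the type holds pericytes as well as endothelial cells. Ependymal-like nuclei, which line the ventricles, had 2871 and 3970 CPM in the 2 hippocampal units that held enough of them, a mean of 3420 that lies above that of CA1-like and astrocyte-like nuclei, and 26 choroid plexus-like nuclei of hippocampus unit 0 had 1574 CPM.

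Free RNA released from broken granule cells can add UMIs to other nuclei of the hippocampal libraries. Its size was estimated from C1ql2 and Dsp, with 553 of their 793 hippocampal UMIs in granule-like nuclei (380 CPM there, 16.6 in CA3-like and 42.9 in astrocyte-like nuclei). If all C1ql2 and Dsp UMIs in other types came from granule RNA, with its Zbtb20, the Zbtb20 level left was 4538 CPM in CA3-like, 2948 in CA1-like, 2009 in astrocyte-like and 1398 in endothelial-like nuclei. It was 949 in microglia-like, 795 in oligodendrocyte precursor-like, 707 in oligodendrocyte-like and 358 in inhibitory neuron-like nuclei, and 132 in thalamic or midbrain neuron-like nuclei. The amount so allowed was 170 CPM in CA3-like and 173 in CA1-like nuclei, small beside their levels, but 334 of 467 CPM in thalamic or midbrain neuron-like and 893 of 1595 in oligodendrocyte precursor-like nuclei.

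The Zbtb20 molecules of each region came from different cells. In hippocampus, granule-like nuclei held 33.1% of all Zbtb20 UMIs (16.5% of all UMIs), CA3-like nuclei 17.4% (7.27%) and CA1-like nuclei 11.9% (7.61%). Astrocyte-like nuclei held 8.13% (6.88%), near their share of all UMIs, and nuclei of clusters with no class name held 10.6% (13.7%). CA3-like nuclei were 3.48% of the hippocampal nuclei. In cortex, endothelial-like nuclei held 28.7% of the Zbtb20 UMIs with 6.80% of all UMIs, layer 2/3-4-like nuclei 14.4% with 20.6%, and astrocyte-like nuclei 13.6% with 2.72%. Cortical nuclei of clusters with no class name held 13.6% with 10.8%. Excitatory neuron-like nuclei of cortex with no layer name held 5.86% with 27.2% of all UMIs. Layer 5 and 6-like nuclei held 0.433% and 1.03% of the Zbtb20 UMIs with 5.48% and 5.29% of all UMIs.

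**Figure D3:**
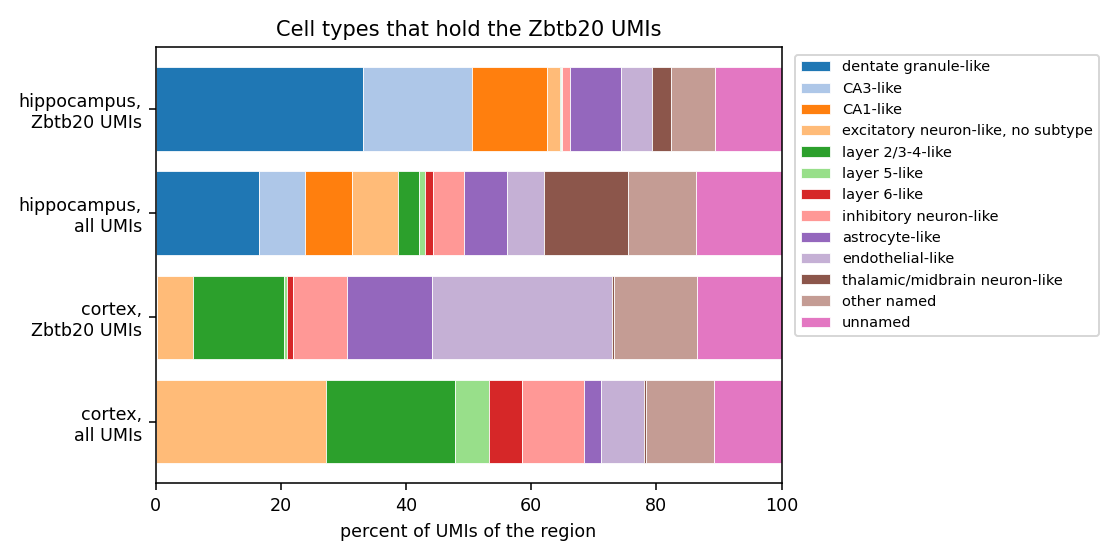
Share of each region's UMIs by cell type, for Zbtb20 UMIs and for all UMIs (percent of the region's total, all units summed); inhibitory subtypes are joined and small types are shown as other named. Granule-like, CA3-like and CA1-like nuclei hold 33.1%, 17.4% and 11.9% of the hippocampal Zbtb20 UMIs, and endothelial-like nuclei hold 28.7% of the cortical ones.

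Genes of isocortical projection neurons, of the kind that Zbtb20 is known to repress, were read beside it. In excitatory neuron-like nuclei the quasi-likelihood test of edgeR, adjusted by Benjamini-Hochberg over 10943 genes, called 8.75% of genes higher in hippocampus and 7.58% higher in cortex. Of the 11 listed isocortical genes, 9 were higher in cortex and 0 in hippocampus, with a median log2 difference (hippocampus minus cortex) of -1.20 against -0.01 over all genes. Mef2c, a factor of neuronal maturation and synapse number, had 226 ± 111 CPM in hippocampus and 658 ± 22.9 in cortex, a difference of -1.49 ± 0.22 (SE, n = 4 units each, adjusted p = 0.000356). Cux2, a factor of upper-layer neurons, had 93.9, 7.54, 1.32 and 10.9 CPM in hippocampus units 0 to 3 and 143 to 174 in cortex, a difference of -2.22 ± 0.54 (adjusted p = 0.0124). The high Cux2 unit was hippocampus 0, which held the layer 2/3-4-like nuclei. Also past the threshold were Tbr1, Sox5, Fezf2, Rorb, Cux1 and Foxp2, from -0.69 to -1.92. Fezf2 and Rorb kept their calls under 12 of 15 alternatives each. Cux1 and Foxp2 did not keep theirs with DESeq2 or without hippocampus unit 1, unit 2 or unit 3. Tle4 and Zfpm2, at 0.51 and 0.70, did not pass. Without hippocampus unit 0 the count was 9 higher in cortex and 1, Tle4, higher in hippocampus; with DESeq2 or without hippocampus unit 2, 5 were higher in cortex, and without hippocampus unit 1 or unit 3, 6 were.

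Within types the isocortical genes did not all follow the reverse of Zbtb20. Several of the 11 also served to name the cortical layers, so their high values there are given as a description. Cux2 was at 319 CPM in layer 2/3-4-like nuclei of cortex and at 6.58 in CA1-like, 4.02 in granule-like and 1.65 in CA3-like nuclei. Mef2c differed among the Zbtb20-high types, with 287 ± 38.7 CPM in granule-like, 52.6 ± 36.1 in CA1-like and 32.4 ± 22.2 in CA3-like nuclei (SD, n = 4 each), all below the 713 ± 50.1 of layer 2/3-4-like nuclei. Fezf2, the factor of corticofugal neurons, had no UMI in granule-like nuclei but 40.2 CPM in CA1-like and 39.5 in CA3-like nuclei, above the 8.41 of layer 2/3-4-like nuclei. Tle4 was at 64.6 CPM in granule-like and 50.9 in CA3-like nuclei. Layer 5-like nuclei, lowest in Zbtb20, had 446 CPM of Mef2c and 23.0 of Cux2, both below the layer 2/3-4 level.

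**Figure D4:**
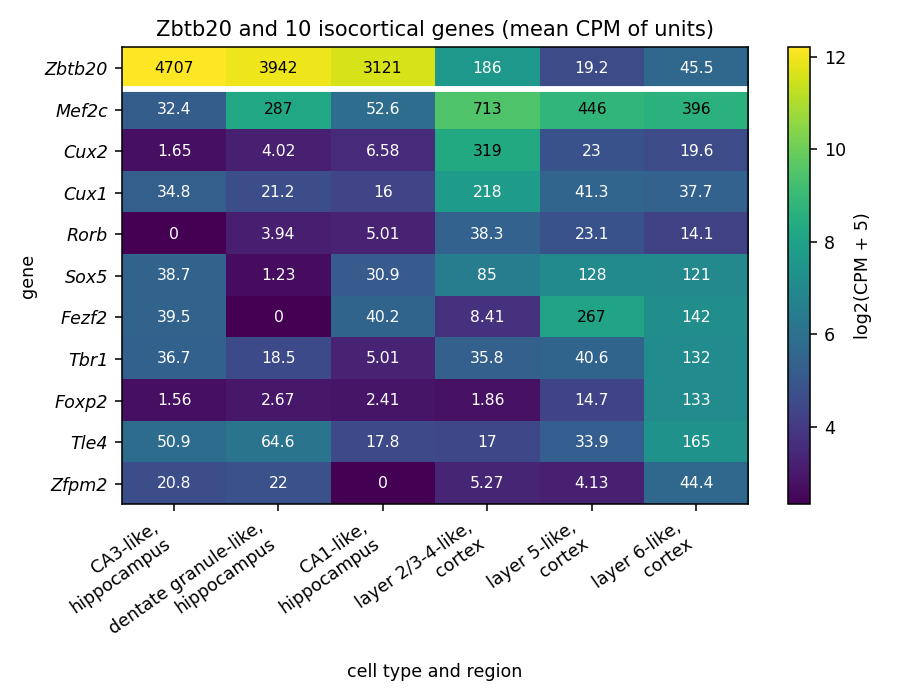
Mean CPM over units of Zbtb20 and 10 of the isocortical genes (vertical) in 6 excitatory types (horizontal); colour is log2(CPM + 5), the numbers are CPM, and each gene is to be compared along its own line since levels of different genes are not on a per-length scale. Zbtb20 runs from 4707 in CA3-like to 19.2 in layer 5-like nuclei, while Mef2c, at 287, and Tle4, at 64.6, stay present in granule-like nuclei.

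Other transcription factors of hippocampal neurons were mostly higher in hippocampus as well. Of 22 tested, 13 (59.1%) were higher in hippocampus and 3 (13.6%: Mef2c, Meis2 and Nr2f1) in cortex, with a median of 0.65 on the log2 scale. Over all genes these shares were 8.75% and 7.58%. Excitatory types differ between the regions, and Prox1 was also among the markers that named granule-like nuclei. Prox1, which specifies granule cells, had 176 ± 22.0 CPM in hippocampus and 3.10 ± 1.89 in cortex, a difference of 5.88 ± 0.26 (SE, n = 4 units each, Benjamini-Hochberg adjusted p = 8.17e-09 by edgeR). Nr3c2, the mineralocorticoid receptor, differed by 2.13, Bcl11b by 1.35, Neurod2 by 1.03 and Zeb2 by 0.97. Unlike Zbtb20, Prox1 was largely held by 1 type, with 454 CPM in granule-like, 24.8 in CA3-like and 9.25 in CA1-like nuclei, while Nr3c2 was in all of them, at 98.2, 75.9 and 119 CPM. Lhx9, a factor of the LIM homeobox family, had 12.9 to 38.3 CPM in hippocampus and at most 0.702 in cortex.

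**Figure D5:**
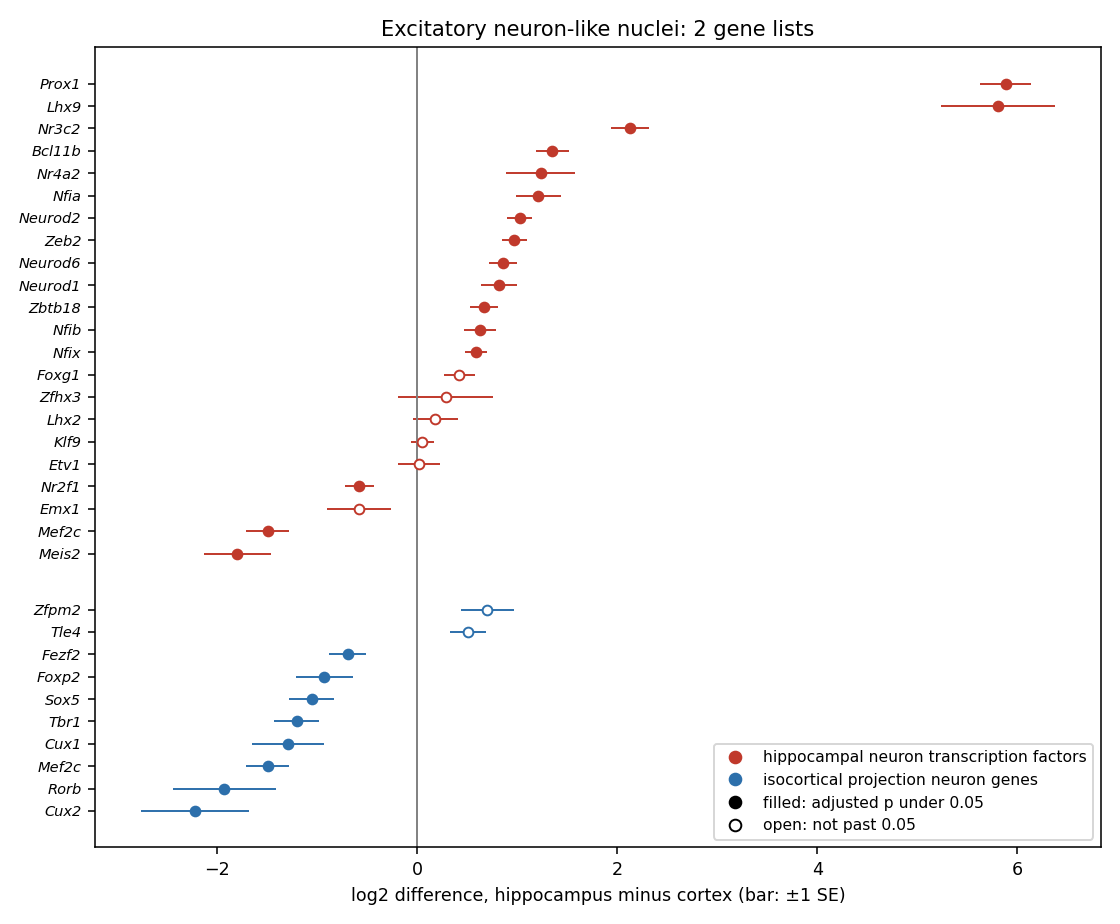
Log2 difference between hippocampus and cortex (horizontal) in excitatory neuron-like nuclei for hippocampal neuron transcription factors (red) and isocortical genes (blue). Bars are ± 1 SE from the edgeR test (4 units per region), and filled points passed an adjusted p of 0.05. In red, 13 genes lie above 0 and 3 below among those that passed; in blue, 8 of the 10 plotted passed and lie below, while Tle4 and Zfpm2 lie above 0 without passing; Mef2c is in both lists.

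Few members of Zbtb20's own protein family differed. Of 30 other BTB zinc-finger genes tested in excitatory neuron-like nuclei, 3 were higher in hippocampus and 1 in cortex, shares near or below those of all genes. Zbtb16, the PLZF gene, had 178 ± 23.2 CPM in hippocampus and 81.3 ± 24.5 in cortex, a difference of 1.13 ± 0.19 (SE, n = 4 units each). Bcl6, a repressor of germinal centre and neural fate genes, differed by 1.27 and Zbtb18 by 0.67, and Zbtb46 was higher in cortex by a difference of -1.30, a call lost without hippocampus unit 1 or unit 3 (adjusted p up to 0.0534). Of the genes known as Zbtb20 targets outside the brain, 2 were tested. Lpl, lipoprotein lipase, was higher in hippocampus by 2.54 ± 0.35, with 52.7 against 8.88 CPM, and Nfkbia did not pass.

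The same lists were read in inhibitory neurons and astrocytes. In inhibitory neuron-like nuclei the test called 0.123% of 4881 genes higher in hippocampus and 0.164% higher in cortex, and no list member passed (0 of 3 isocortical genes and 0 of 8 hippocampal factors). In astrocyte-like nuclei it called 3.84% of 2059 genes higher in hippocampus and 3.93% higher in cortex. There Mef2c was higher in cortex, at 316 ± 34.9 against 59.4 ± 47.1 CPM (-2.09 ± 0.34), beside the excitatory neuron markers that were also higher in the cortical nuclei. Meis2 was higher in cortex by -1.40 and Nr2f1 higher in hippocampus by 1.17, a call that was lost under 6 of 15 alternatives (adjusted p up to 0.112). Of 14 astrocyte transcription factors, Sox9, Nfia and Hes5 among them, 0 passed in either direction. In excitatory neuron-like nuclei 5 of 13 factors of that list, Glis3, Trps1, Nfia, Nfix and Nfib, were higher in hippocampus and 5 (Id2, Rorb, Hes5, Hes1 and Sox9) in cortex. These are 38.5% in each direction, against 8.75% and 7.58% of all genes. Of the 15 alternatives, Sox9 kept its call under 8 (adjusted p up to 0.135), Hes5 and Hes1 under 9 each and Rorb and Nfib under 12 each.

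Within a type, few genes tracked Zbtb20 from nucleus to nucleus, and the correlations were weak. In 1181 granule-like nuclei, Pearson correlations of depth-adjusted residuals, averaged over 4 units, ran from -0.12 to 0.143 over 2319 genes with a median of 0.002, and 16.8% of genes kept 1 sign in every unit. Ppfia2, a scaffold of presynaptic sites, was highest at 0.143 (0.114 to 0.186 over units), then Ppp3ca, the catalytic subunit of calcineurin, at 0.140, and Malat1, a nuclear noncoding RNA, was lowest at -0.12. Ppp3ca was also highest in 281 CA1-like nuclei of 3 units, at 0.242, and Scn3a, a sodium channel, was highest in 155 CA3-like nuclei of 3 units among genes with 1 sign in every unit, at 0.323. With nuclei thinned to 400 UMIs, the mean of the 8 highest genes fell from 0.121 to 0.0587 in granule-like, from 0.213 to 0.0246 in CA1-like and from 0.285 to 0.0563 in CA3-like nuclei. Of 2159 genes measured in all of these types, 12 were positive in every unit and 7 negative. The 12 were led by Ppp3ca, Atrx and Scn3a. In counts this sparse these are descriptions of the nuclei, with no test, and the nuclei of a unit share 1 library preparation.

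The remaining types gave the same picture of weak values. In 578 hippocampal astrocyte-like nuclei the highest gene was Thoc2, at 0.163, and the lowest Dbi, at -0.13. In 1331 layer 2/3-4-like nuclei of cortex the highest was Brd9, at 0.153, and the lowest Peg3, at -0.14. Of the factors listed for hippocampal neurons, 9 of 11 measured were positive in granule-like, 8 of 13 in CA1-like and 11 of 13 in CA3-like nuclei. In every unit, 3, 2 and 5 of them were positive and 1, 2 and 0 negative. Over all genes, 200 of 2319, 453 of 3865 and 647 of 5605 were positive in every unit. Nfia had mean correlations with Zbtb20 of 0.106, 0.100 and 0.236 in these types, and Nfib and Nfix were also positive in each. Of Nfia, Nfib and Nfix, 1, 2 and 3 were positive in every unit of these types. Endothelial-like nuclei were read in 1 unit per region. In 74 such nuclei of cortex unit 0, 3802 of 7667 genes were positive. So were 5 of 5 mural markers (median 0.284) and 6 of 6 endothelial markers (median 0.235). In 68 such nuclei of hippocampus unit 0, 2270 of 5609 genes were positive. So were 1 of the 5 mural markers (Kcnj8) and 0 of the 6 endothelial markers. Doublet calls were 23.0% in the cortical and 1.47% in the hippocampal nuclei. A single nucleus held 131 of the 493 Zbtb20 UMIs of the hippocampal ones. The part of these in the correlations was not tested.

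Across 37 combinations of type and region, no gene had a pattern close to that of Zbtb20. Over 14922 genes the Pearson correlation of log2(CPM + 5) had a median of 0.034, and 0 genes passed 0.8. The most like were Itm2b (0.722), a membrane protein gene highest in endothelial-like nuclei, Homer3 (0.708), a postsynaptic scaffold highest in CA3-like nuclei, Cald1 (0.677), Rpl37, Ddx5, Cnn3, Rps26 and Pcdh20 (0.665). Pcdh20, a protocadherin, was nearest to the neuronal part of the pattern, with 320 CPM in granule-like, 227 in CA3-like and 160 in CA1-like nuclei against 22.2 in layer 2/3-4-like nuclei. The least like were Osbpl3 (-0.74), Garnl3, Asap1 and Hrh3. Points of 1 library share its depth and free RNA, and with another pseudocount or with ranks 3 to 5 of the 8 most like genes stayed among the first 8.

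Zbtb20 lies on the plus strand of chromosome 16 from 42875881 to 43642602 in GRCm38 (mm10), a locus of 766722 bases with 21 annotated transcripts in GENCODE vM21. The counts are given per gene, so they do not tell these transcripts apart. Of 9 annotated genes that overlap it, 3 are in the table, with 85 (Gm25873), 28 (Gm9968) and 9 UMIs (Gm15713) over all nuclei against 20058 for Zbtb20. Gm9968 and Gm15713 lie antisense to it, and the sources used here do not say whether counting used the strand, so some of their reads and those of Zbtb20 may not be told apart. Of 37 other annotated genes within 1 Mb, 18 are in the table and 10 of these reached 20 CPM in a type. The flanking Gap43, a growth cone protein gene, had a correlation with Zbtb20 across types of -0.57, and Lsamp, an adhesion gene on the same strand, 0.153.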

How the data were processed

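Nuclei of 10 libraries were measured by DroNc-seq. The deposited values are raw UMI counts per gene and nucleus; per the submitters' processing notes STAR 2.4.0a24 and Seurat were used with the mm10 build, and filters and counting strand are not given in the sources used here. Of 13313 columns, 1689 matched no label and were not used. Depth was 1443244 to 4407856 UMIs per unit.

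Clusters were made in scanpy 1.11.5 (Python 3.11.15) without Zbtb20, from 2000 variable genes, 40 principal components and 20 neighbours, with leidenalg 0.10.2 at resolution 2, and named from marker lists. The naming thresholds (score of at least 0.4, margin of 0.1) and the doublet cut (at least 85% of a nucleus's 30 neighbours being simulated pairs) were set after the clusters and their Zbtb20 levels had been seen. Doublet calls (691 nuclei, 5.94%) were kept. Levels are means over units with at least 10 nuclei of a type, in CPM. The SE of a Zbtb20 log2 difference comes from the spread of log2(CPM + 5) over units. For other genes it is the absolute log2 difference divided by the square root of the F statistic of the edgeR test. Counts summed per unit and class (at least 20 nuclei) were tested with edgeR 4.0.16 (R 4.3.3), by its quasi-likelihood test with Benjamini-Hochberg adjustment, over all genes passing the filter on low counts, with calls at an adjusted p of 0.05. This step was tested on simulated data. DESeq2 1.42.0, no filter, a block for the title number, leaving out each unit, units 1 to 3 only, doublet removal, other cluster resolutions, other thresholds and free RNA subtraction were the alternatives. Correlations within a type used Pearson residuals (theta of 100) in units with at least 50 nuclei, for genes in at least 10% of nuclei.

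The gene, lists and tests were chosen with earlier results of these data known. Named genes are the 8 highest and 4 lowest correlated (one sign in every unit within a type), list members past the threshold (at most 6 per direction), the 11 isocortical genes, and neighbours within 1 Mb at 20 CPM or more; a few of these are given in the text, and Tle4, Zfpm2, Nfkbia, Nfib, Nfix and the factors that differed in astrocyte lists are given as members of their lists. For 1 isocortical gene, counted in the list, single values are not reported here. Title numbers were not used to pair the samples in the main test.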

Additional observations from a re-analysis of the deposited data

Results flagged for a closer look

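Zbtb20 CPM and the share of nuclei with a UMI were each checked, in groups of 4 units, for a unit far from the rest. In 11 of 64 such checks, 1 value stood apart from the other 3. Chance flags about 1 in 20 independent checks, but these were not independent. Both measures use the same nuclei, and sums such as all nuclei hold the nuclei of the other types, so the count cannot be set against that rate. Most of the flagged values lie in the units numbered 0, which stood apart in depth or composition. Those units differ from the rest in more than Zbtb20, and no cause was tested.

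Over all nuclei, hippocampus unit 0 was lowest at 1476 CPM, with the next unit at 2307, and cortex unit 0 was highest at 331 CPM, with the next at 224. Cortex unit 0 also had the highest share of nuclei with a Zbtb20 UMI, 34.5% against 16.7% in the next unit. In excitatory neuron-like nuclei the share was lowest in hippocampus unit 0, at 55.0% against 79.5% in the next, and highest in cortex unit 0, at 17.7% against 8.35%. In CA3-like nuclei hippocampus unit 0 was highest, at 5022 CPM against 4626.

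Among other types, microglia-like nuclei of cortex unit 0 had the highest level, 353 CPM against 189 in the next unit, and the highest share with a UMI, 63.0% against 28.9%. Oligodendrocyte precursor-like nuclei of cortex unit 0 had a share of 72.4% against 36.8%. Oligodendrocyte-like nuclei of hippocampus unit 1 had 1763 CPM against 979.8 in the next unit. Meningeal fibroblast-like nuclei of cortex unit 2 had the lowest share, 37.9% against 58.3%.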

How the results depend on the processing

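Of 479 alternative values of levels, differences, correlations and counts, 420 stayed within the spread between units (or, for counts of genes, within 1.5 times) and 59 moved. None reversed, though a level in CPM or a count cannot change sign. Leaving out a unit cannot move a mean past this spread. So 96 levels, 62 differences and 18 correlations stayed by construction, as did 24 levels and 7 differences with units 1 to 3 only. Of 540 alternative calls of named genes, 487 kept their side of the threshold, 51 lost it and 2 gained it. The cause of these moves was not tested. The alternative thresholds for naming classes and the subtraction by C1ql2 and Dsp were chosen after seeing the data.

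Levels moved as follows (CPM). Without doublet calls, hippocampal inhibitory neuron-like nuclei had 397 and thalamic or midbrain-like 374, and log2 differences were 0.84 for inhibitory neurons and 2.47 for microglia. At Leiden resolution 1.0, cortical astrocytes had 669, hippocampal oligodendrocytes 1773, layer 6-like nuclei of hippocampus 191 and thalamic or midbrain-like 238, with differences of 1.77 for astrocytes and 2.26 for meningeal fibroblasts. At resolution 4.0, CA3 had 4356 and hippocampal layer 6 475. With a class margin of 0.15 thalamic or midbrain-like nuclei had 268, and with a class score of 0.6 cortical excitatory neurons had 80.2 and no granule class was named. With free granule RNA subtracted by C1ql2, Dsp and Trpc6, hippocampal inhibitory neurons had 156, astrocytes 2065, layer 6 61.8, microglia 769 and thalamic or midbrain-like 186. By C1ql2 and Dsp alone these were 358, 2009, 80.9, 949 and 132, with precursors at 795 and oligodendrocytes at 707. Trpc6 had 67.7 CPM in cortical layer 2/3-4-like and 135 in cortical Sst interneuron-like nuclei, so it is no granule-only gene.

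The mean correlation of the 8 highest genes, with nuclei thinned to 400 UMIs, was 0.0587 in granule, 0.0246 in CA1, 0.0563 in CA3, 0.0745 in hippocampal astrocyte and 0.0554 in layer 2/3-4-like nuclei. On log scaled counts it was 0.190 in CA1, 0.211 in CA3 and 0.0861 in astrocytes.

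Genes called between regions numbered 1786 in excitatory, 14 in inhibitory and 160 in astrocyte-like nuclei. With units 1 to 3 only they were 3482, 142 and 338. DESeq2 called 9 inhibitory and 100 astrocyte genes. Inhibitory calls were 53 with no filter, 3 without doublet calls and 239 at resolution 1.0, where astrocyte calls were 1046. Leaving out each unit gave 1151 to 2521 excitatory calls (the most without hippocampus unit 0), 4 to 98 inhibitory calls (the most without hippocampus unit 0) and 101 to 257 astrocyte calls (the most without cortex unit 0). In excitatory neurons, deviations from the region mean correlated at 0.0965 to 0.472 between same-numbered units. Hippocampus unit 0 had the 0.472 with cortex unit 0, and -0.264 to -0.248 with cortex units 1 to 3. Among units 1 to 3, same numbers gave 0.0965 to 0.130 and different numbers 0.0940 to 0.158. So the units numbered 0 deviated together across regions, while the other numbers did not set pairs apart. With the replicate block the calls were 2611, 54 and 128. Cux2 lost its call with DESeq2 (adjusted p = 0.115).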
